A study of Mus musculus with 4 samples.

Results

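The negative limb of the circadian clock and the output gene Dbp were examined in MC38 cells as 10 genes. These were Bhlhe40, Bhlhe41, Per1, Per2, Per3, Cry1, Cry2, Nr1d1, Nr1d2 and Dbp. The members were chosen by name, as the rows of the count table whose NCBI gene identifier maps to one of these symbols. All 10 were found among the 27179 genes listed, and all 10 were among the 13580 genes that passed the filter on low counts.

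MC38 is a mouse colon carcinoma line, and wild-type MC38 cells were used for every library. RNA-seq was done under 4 conditions with 1 library each. Control cells without IFN-γ were kept under normoxic conditions at 20% oxygen or under hypoxic conditions at 1.5% oxygen, and cells given IFN-γ at 5 ng/mL for 24 h were kept at the same 2 oxygen levels. No condition had a replicate, so differences between cultures and the effects of the treatments cannot be told apart within any single pair of libraries. The duration of hypoxia, the hour of harvest and any synchronization of the clock are not given in the sources used here. With 1 time point, a shift in clock phase and a change in mean level cannot be told apart either.

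The mammalian clock is a transcriptional feedback loop. CLOCK and BMAL1 bind E-box sequences, whose best known form is CACGTG, and switch on the Per and Cry genes, whose proteins return to block CLOCK and BMAL1. BHLHE40 (DEC1) and BHLHE41 (DEC2) are basic helix-loop-helix repressors that bind E-boxes themselves, REV-ERBα and REV-ERBβ, made from Nr1d1 and Nr1d2, are nuclear receptors that repress Bmal1, and DBP is an activator that is itself a direct output of CLOCK and BMAL1. In many cell types Bhlhe40 is also known as a gene that hypoxia-inducible factors switch on, and BHLHE40 is known for its part in cytokine production by immune cells.

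Because many clock genes are controlled through E-boxes, the promoters of the members called as changed with hypoxia are shown first. Whether these sequences had a part in the changes was not tested. Each is the 250 bases before the transcription start in RefSeq, on the build GRCm38.p6, written 5′ to 3′ in the direction of the gene. Capitals mark CACGTG, the related CACGTT, and AGGTCA, the core bound by REV-ERB and ROR receptors, on either strand, so that CACGTT can appear as AACGTG and AGGTCA as TGACCT.
Bhlhe41, chr6:145865421-145865670, minus strand: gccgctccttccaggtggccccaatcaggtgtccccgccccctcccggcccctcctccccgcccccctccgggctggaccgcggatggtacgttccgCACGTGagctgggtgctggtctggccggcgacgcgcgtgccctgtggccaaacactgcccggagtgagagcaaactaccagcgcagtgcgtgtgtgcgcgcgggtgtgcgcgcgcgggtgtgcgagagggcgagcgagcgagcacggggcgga
Per1, chr11:69098699-69098948, plus strand: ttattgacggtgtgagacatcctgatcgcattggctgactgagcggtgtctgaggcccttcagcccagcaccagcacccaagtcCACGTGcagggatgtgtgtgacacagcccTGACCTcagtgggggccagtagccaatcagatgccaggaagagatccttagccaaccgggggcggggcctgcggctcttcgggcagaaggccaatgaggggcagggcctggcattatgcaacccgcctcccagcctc
Cry1, chr10:85185055-85185304, minus strand: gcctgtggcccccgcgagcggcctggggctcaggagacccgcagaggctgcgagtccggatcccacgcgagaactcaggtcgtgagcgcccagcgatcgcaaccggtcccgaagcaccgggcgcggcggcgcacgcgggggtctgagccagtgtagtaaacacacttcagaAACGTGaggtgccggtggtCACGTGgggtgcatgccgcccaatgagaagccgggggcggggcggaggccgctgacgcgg
Nr1d1, chr11:98775378-98775627, minus strand: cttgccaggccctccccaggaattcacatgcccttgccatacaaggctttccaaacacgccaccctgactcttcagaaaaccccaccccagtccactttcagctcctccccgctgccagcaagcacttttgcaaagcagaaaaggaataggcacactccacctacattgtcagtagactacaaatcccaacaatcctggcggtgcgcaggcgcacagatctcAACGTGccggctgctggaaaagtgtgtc
Nr1d2, chr14:18239107-18239356, minus strand: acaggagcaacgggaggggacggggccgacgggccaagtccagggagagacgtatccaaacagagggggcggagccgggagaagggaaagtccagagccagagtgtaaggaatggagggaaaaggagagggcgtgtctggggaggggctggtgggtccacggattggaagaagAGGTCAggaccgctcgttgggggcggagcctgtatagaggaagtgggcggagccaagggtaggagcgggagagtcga

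A promoter entry was matched for 8 of the 10 members, the others being Bhlhe40 and Per2. CACGTG occurred in 3 members, beginning 153 bases before the start of Bhlhe41, 166 bases before the first of the 2 starts listed for Per1, and 60 bases before that of Cry1. Of 32851 promoter windows of the same length, 6.02% held this sequence. The form CACGTT was found in Cry1, Cry2 and Nr1d1, at 79, 166 and 28 bases before the start, and in 3.85% of all windows. AGGTCA was found in Nr1d2 at 77 bases and in Per1 at 137 bases before the start, and in 14% of all windows. TTATGTAA, the form of the D-box searched for, which DBP and NFIL3 bind, occurred only in Per3 among the 8, at 158 and 205 bases before the start, and in 0.819% of all windows. ACGTG, the form searched for of the core site of hypoxia-inducible factors, lies inside CACGTG on both strands and inside CACGTT on 1. It was therefore present wherever those were. Other forms of that core were not searched for. The only member with ACGTG and neither longer form was Dbp, at 227 bases before the start, and 16.6% of all windows held ACGTG. TTCNNNGAA, the site form bound by STAT proteins, was found in Dbp at 99 bases and before the second start of Per1 at 210 bases, and in 7.02% of all windows. Both strands were searched for each motif. A match in a window says only that the letters are there.

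The 4 libraries had nearly equal depth, with 34302971 to 34537939 counts on genes and a ratio of 1.007 between the largest and the smallest. The treatments were visible in the genes they are known for. All 6 hypoxia genes of a check list (Car9, Egln3, Vegfa, Slc2a1, Bnip3 and Pdk1) rose with hypoxia, with a median log2 change of 1.29, and 3 IFN-γ genes (Irf1, Gbp2 and Cd274) rose with IFN-γ, with a median of 2.43. These 3 genes also passed for hypoxia, with a median of 0.26, but Irf1 and Gbp2 did so in 5 of 7 alternative fits and Cd274 in 3 of 7. Under normoxic and hypoxic conditions the counts of Cd274 were 447 and 457 without IFN-γ, and 1658 and 2191 with it. Epithelial markers were low for a colon line. Cdh1 and Cdx2 had 0 counts in every library, where a count of 0 allows up to 3 counts, and the 8 epithelial and colon markers together had 85 to 113 counts. The 3 immune markers (Ptprc, Cd3e and Itgam) summed to 3 to 12 counts, with Itgam at 0, the 2 endothelial markers (Pecam1 and Cdh5) to 26 to 50, and the 3 fibroblast markers (Col1a1, Col1a2 and Pdgfra) to 1185 to 1452 counts, most of them from Pdgfra.

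Per length of all annotated exons of a gene merged, which can be longer than any 1 transcript, Bhlhe40 and Cry1 were the most abundant members. Mean RPKM over the 4 libraries was 22.1 for Bhlhe40, with a range of 11.4 to 32.5, and 19.7 for Cry1, with a range of 17.2 to 22.5. The ranges of these 2 genes overlapped, and both lay above those of all other members. A middle group followed in the order Nr1d1 (6.62 RPKM), Nr1d2 (5.54 RPKM) and Per1 (5.51 RPKM), again with overlapping ranges. Cry2, at 3.24 RPKM, and Bhlhe41, at 2.25 RPKM, came next, and the range of Bhlhe41 up to 3.10 RPKM reached into that of Cry2. Per2 (1.03 RPKM), Dbp (0.970 RPKM) and Per3 (0.861 RPKM) were lowest, and neighbours among these 3 did not separate. In both normoxic libraries Cry1 was above Bhlhe40 per length, and in both hypoxic libraries Bhlhe40 was above Cry1. The order in normoxia depends on the lengths used. By counts alone, Bhlhe40 was above Cry1 in the normoxic control library, 2410 against 2029. The plot of normalized levels by library shows all members.

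**Figure D1:**
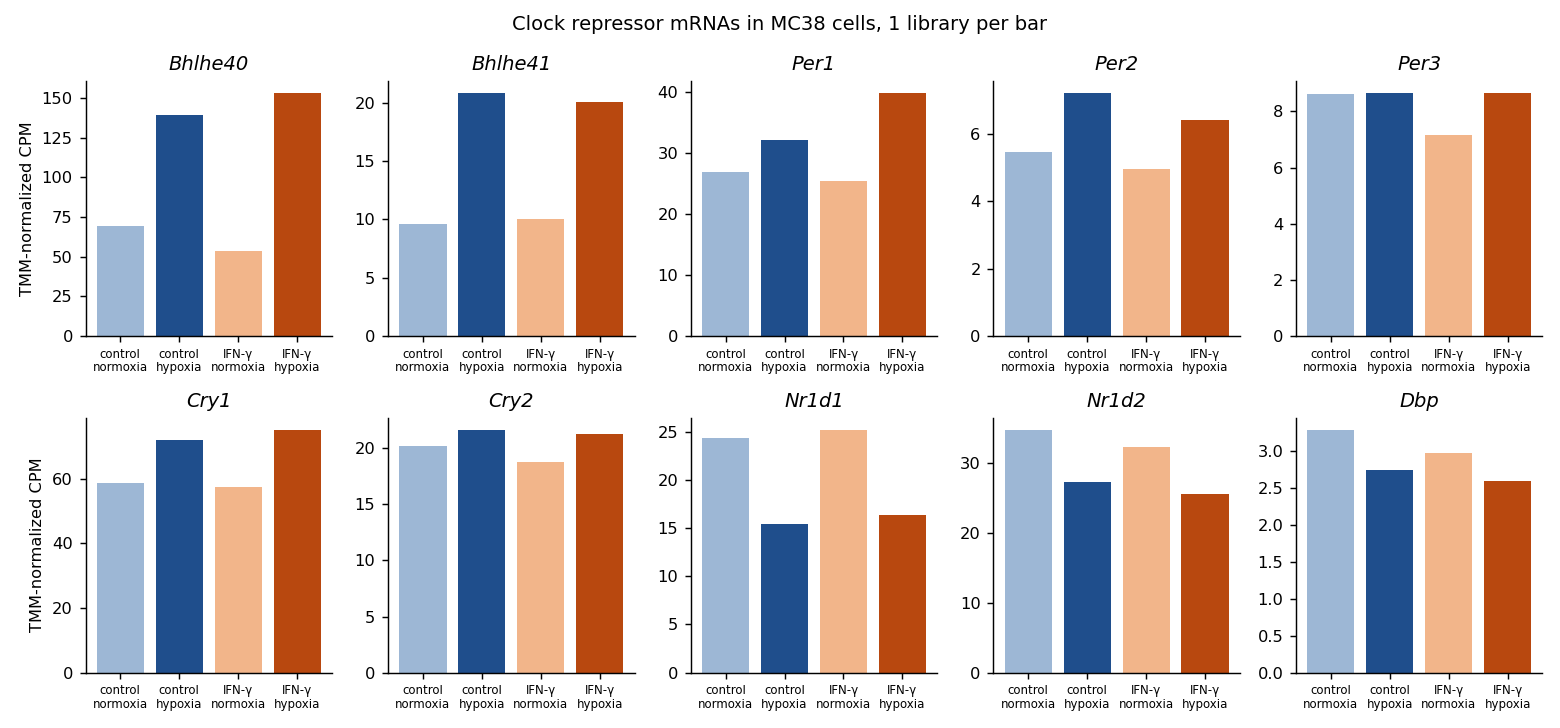
TMM-normalized CPM, the counts scaled to a common library size, of each of the 10 genes, with 1 bar for each of the 4 libraries and an axis of its own for each gene, starting at 0. There are no error bars because each condition has 1 library. Bhlhe40 and Bhlhe41 stand high in both hypoxic libraries, and Nr1d1 and Nr1d2 stand low in them.

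In the edgeR fit, 6 of the 10 genes were called with hypoxia, Bhlhe40, Bhlhe41, Per1 and Cry1 as raised and Nr1d1 and Nr1d2 as lowered. In these bulk samples, fewer cells of a type and less RNA per cell cannot be told apart. Calls were made with the quasi-likelihood test of edgeR on a model that adds an oxygen term and an IFN-γ term, fitted to the 4 libraries, with Benjamini-Hochberg adjustment over the 13580 genes and a threshold of 0.05. Of all tested genes, 15% were called, 8.21% as raised and 6.83% as lowered, against 4 and 2 of the 10 members. The median fitted log2 change of the members was 0.24, beside 0.00 for all tested genes, and the median size of the change, whatever its direction, was 0.37 beside 0.12. The 2 hypoxia pairs, without and with IFN-γ, have no library in common, and the sign of the change was the same in both for 10 of 10 members and for 65.8% of all tested genes. For Per3 this rests on a change of 0.0074 without IFN-γ, which became -0.0040 with total counts in place of TMM and would leave 9 of 10. Members were chosen with earlier results of these data known, so these comparisons with all tested genes are descriptive only. The model has 1 residual degree of freedom, and its spread is the departure of genes from additivity, so it does not measure variation between replicate cultures. In this fit the prior degrees of freedom were infinite, which means that each gene's error came from the spread shared by all genes. The range of adjusted p over 7 alternative fits is therefore given below for each member that was called.

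Bhlhe40, at chr6:108660629-108666925, had 2410 counts in normoxia and 4823 in hypoxia without IFN-γ, and 1841 and 5243 counts with it. Both hypoxic libraries were far above both normoxic ones. Without IFN-γ the log2 change with hypoxia was 1.003 (95% counting interval 0.93 to 1.07), and with IFN-γ it was 1.51 (1.43 to 1.59). These intervals, and all those given for pairs of libraries, cover counting error only. The fitted log2 change was 1.25 ± 0.0637 (SE), with an edgeR adjusted p of 2.83e-82, and it ranked 105 from the highest among the tested genes. Over the 7 alternative fits of edgeR and DESeq2 the adjusted p ran from 2.09e-14 to 0.0213, past the threshold in each, and the largest SE was 0.270.

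Bhlhe41, the close relative of Bhlhe40, at chr6:145858243-145865420, had 333 and 720 counts in the control libraries under normoxic and hypoxic conditions, and 344 and 688 in the IFN-γ libraries. The 2 hypoxic libraries were close to each other and well above the 2 normoxic ones. The log2 change was 1.11 (0.93 to 1.31) without IFN-γ and 1.0004 (0.81 to 1.19) with it. The fitted change was 1.06 ± 0.106, with an edgeR adjusted p of 3.3e-21 and a range of 9.8e-09 to 0.0107 over the alternatives. Bhlhe40 and Bhlhe41 were the 2 members with a log2 change over 1 in both hypoxia pairs, which 0.729% of all tested genes (99 genes) had. For each of them this rests on a value barely over 1. The change of Bhlhe40 without IFN-γ became 0.992 with total counts in place of TMM. That of Bhlhe41 with IFN-γ became 0.991 with 5 counts added. Exons of a gene model on the opposite strand, Gm43909, overlap 19% of the exon bases of Bhlhe41, and whether the counting used the strand is not given in the sources used here.

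**Figure D2:**
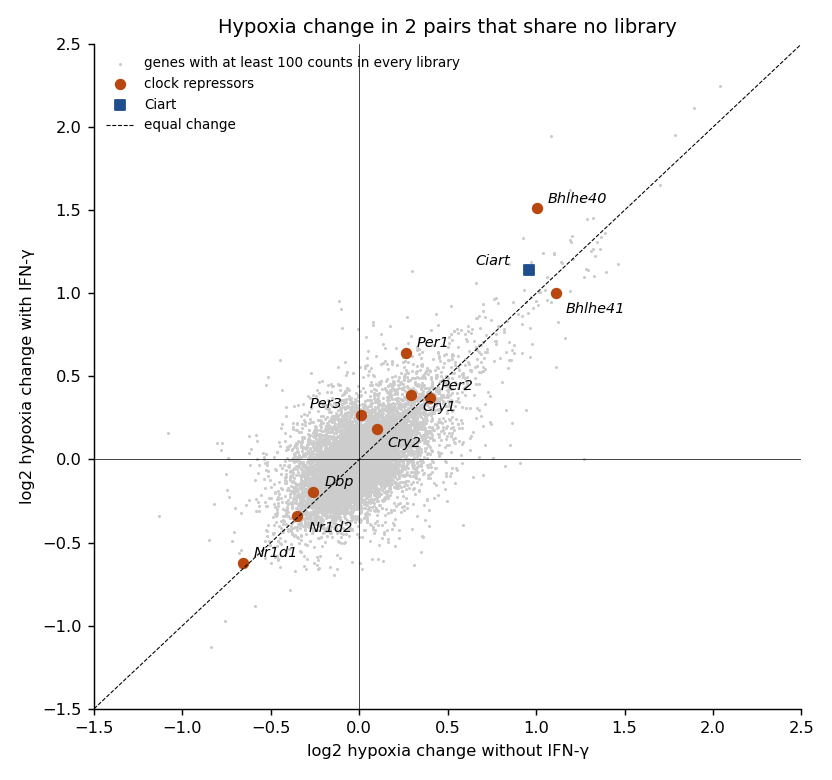
Log2 change with hypoxia without IFN-γ (horizontal axis) and with IFN-γ (vertical axis), for the 10 genes, for Ciart and, in grey, for 10443 genes whose lowest library had 100 counts or more; the dashed line marks equal change. Bhlhe40, Bhlhe41 and Ciart lie at the upper right near or above 1 on both axes, and Nr1d1 lies at the lower left, at -0.66 and -0.62.

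The Period genes, whose proteins form the repressing complex with the cryptochromes, were called in 1 case of 3, beside 15% of all tested genes. With 3 genes, 1 call does not set them apart from that share. The differences between them were not tested. Per1, at chr11:69095108-69109965, had 927 and 1110 counts without IFN-γ and 872 and 1361 counts with it, under normoxic and hypoxic conditions in this order. The library with both treatments was the highest of the 4. The log2 change with hypoxia was 0.26 (0.14 to 0.39) without IFN-γ and 0.64 (0.52 to 0.77) with it, and the fitted change was 0.45 ± 0.0808 with an edgeR adjusted p of 8.16e-07. In 2 of the 7 alternative fits Per1 did not pass, with an adjusted p of up to 0.149.

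Per2, at chr1:91415977-91459351, had 189 and 249 counts without IFN-γ and 170 and 220 counts with it. Both hypoxic libraries were above both normoxic ones, by 0.40 (0.12 to 0.68) and 0.37 (0.08 to 0.67) on the log2 scale, but the fitted 0.39 ± 0.156 did not pass (edgeR adjusted p = 0.0738). Per3, at chr4:150997018-151044707, had 298 and 299 counts without IFN-γ and 246 and 296 counts with it, so that 3 libraries were nearly equal and the normoxic library with IFN-γ was the lowest. Its fitted change of 0.14 ± 0.134 did not pass (edgeR adjusted p = 0.577).

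Cry1, at chr10:85131700-85185054, had 2029 and 2483 counts without IFN-γ and 1968 and 2573 counts with it. The cryptochrome was higher in both hypoxic libraries, by 0.29 (0.21 to 0.38) without IFN-γ and 0.39 (0.30 to 0.47) with it on the log2 scale. The fitted change was 0.34 ± 0.0689, with an edgeR adjusted p of 2.28e-05 and a value of up to 0.262 over the alternatives, of which 5 of 7 passed. Its paralogue Cry2, at chr2:92403646-92434085, had 700 and 748 counts without IFN-γ and 643 and 729 counts with it. The 4 libraries of Cry2 lay close together, and the fitted change of 0.14 ± 0.0919 did not pass (edgeR adjusted p = 0.344).

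The REV-ERB genes went the other way. Nr1d1, at chr11:98767932-98775377, had 844 and 533 counts without IFN-γ and 865 and 562 counts with it, and the 2 hypoxic libraries were far below the 2 normoxic ones. The log2 change was -0.66 (-0.82 to -0.50) without IFN-γ and -0.62 (-0.78 to -0.47) with it. The fitted change was -0.64 ± 0.0928 with an edgeR adjusted p of 3.84e-10, and over the 7 alternatives the adjusted p ran from 1.08e-05 to 0.0301. The end of Nr1d1 overlaps exons of Thra, a thyroid hormone receptor gene on the opposite strand, over 263 bases (8.55% of its exon bases). Thra had 303 and 433 counts without IFN-γ and 333 and 380 counts with it, with more counts in each hypoxic library than in its normoxic partner. The part of these reads in the values of Nr1d1 was not tested.

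Nr1d2, at chr14:18204056-18239106, had 1203 and 942 counts without IFN-γ and 1107 and 874 counts with it. It was lower in both hypoxic libraries, by a log2 change of -0.35 (-0.47 to -0.23) and -0.34 (-0.47 to -0.21), smaller in size than the values of Nr1d1. The fitted change was -0.34 ± 0.0814 with an edgeR adjusted p of 0.00045, and it passed in 4 of the 7 alternatives, with an adjusted p of up to 0.273. Of the 31-base words in its transcripts, 9.51% also occur in another annotated gene, against at most 0.466% for the other members.

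Dbp, the output activator, at chr7:45705100-45710203, was the member with the fewest counts, 114 and 95 without IFN-γ and 102 and 89 with it. The hypoxic libraries were the 2 lowest, but the fitted change of -0.23 ± 0.219 did not pass (edgeR adjusted p = 0.559), and its single-pair changes of -0.26 and -0.19 had counting intervals that included 0. Exons of Sphk2, on the opposite strand, cover 18% of the exon bases of Dbp. Sphk2 had 1127 and 981 counts without IFN-γ and 1179 and 953 counts with it, with fewer counts in each hypoxic library, as for Dbp. The part of these reads in the values of Dbp was not tested. A change of this size in Dbp was not detectable at this depth.

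Of the 6 members called, Bhlhe40, Bhlhe41 and Nr1d1 passed in all 7 alternative fits. DESeq2's Wald test called 5 members, the same ones without Nr1d2.

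**Figure D3:**
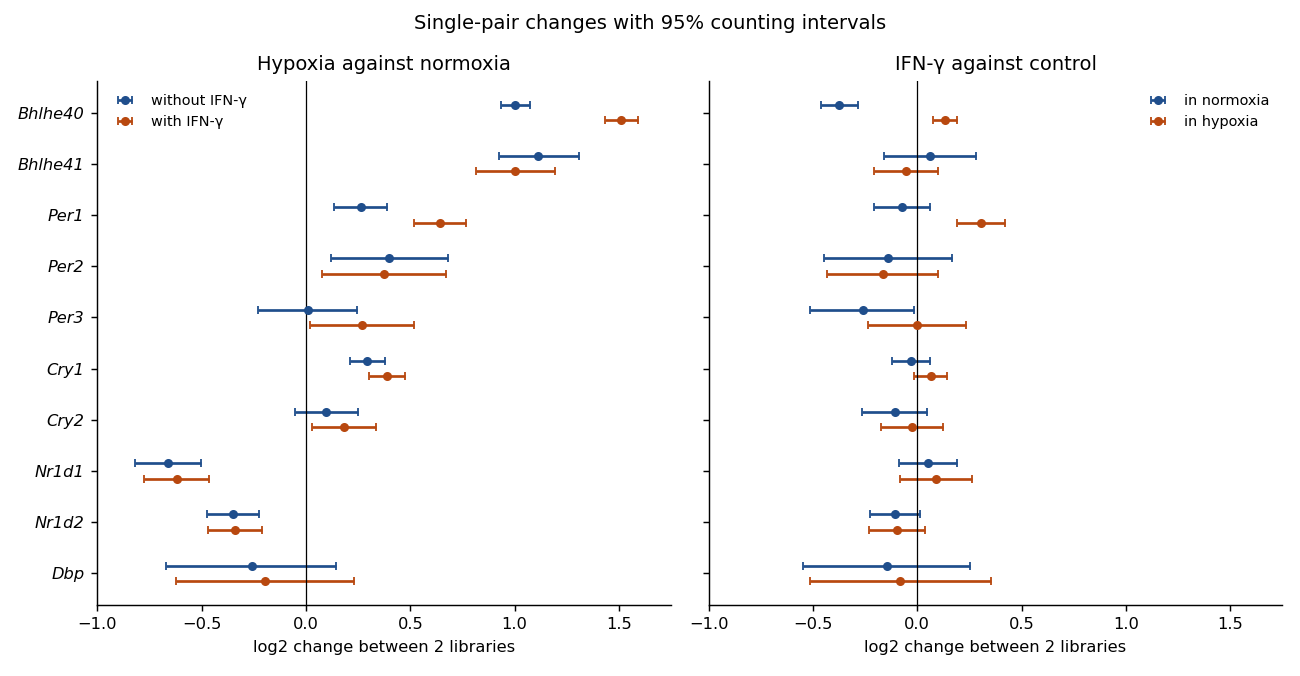
Log2 change between 2 libraries for each gene, with hypoxia against normoxia on the left and IFN-γ against control on the right; points are the changes and bars the 95% counting intervals. With hypoxia the points of Bhlhe40 and Bhlhe41 lie above 1 in both pairs, and with IFN-γ the 2 points of Bhlhe40 lie on opposite sides of 0.

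With IFN-γ, 0 of the 10 genes passed the same edgeR test with Benjamini-Hochberg adjustment, beside 5.86% of all tested genes that were called, 4.76% as raised and 1.1% as lowered. No member had an unadjusted p under 0.05, the smallest being 0.1001 for Bhlhe40 in the edgeR fit, and DESeq2 called 0 members. The largest fitted log2 change was -0.15 ± 0.156, for Per2. The additive model averages the changes under both oxygen levels, and for Bhlhe40 these differed in sign. IFN-γ and hypoxia changes also share libraries, the untreated one among them.

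Under normoxic conditions Bhlhe40 was lower with IFN-γ, 1841 counts against 2410, a log2 change of -0.37 (-0.46 to -0.29). Under hypoxic conditions it was higher with IFN-γ, 5243 counts against 4823, a log2 change of 0.13 (0.08 to 0.19). The difference between the 2 changes, hypoxic minus normoxic, was 0.51 (counting interval 0.40 to 0.61), and it is the same quantity as the difference between the 2 hypoxia changes. Among the 10443 genes that had 100 counts or more in each of the libraries, the central 95% of this difference ran from -0.36 to 0.40. Bhlhe40 ranked 115 from the top (1.1% of the genes at or above it), and 201 by size whatever the direction. Counting error alone understates the spread, since 34.5% of these genes lay outside their own counting interval around 0. With 1 library per condition the difference was not tested. Cells given both treatments had 2.20 times the Bhlhe40 of untreated cells, a log2 change of 1.14 (1.07 to 1.21).

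Per1 showed the next largest difference. Its IFN-γ change was -0.07 (-0.21 to 0.06) under normoxic and 0.31 (0.19 to 0.42) under hypoxic conditions, a difference of 0.38 (0.21 to 0.56), inside the central 95% of genes at rank 332. Per3 had a difference of 0.26 (-0.08 to 0.60), with IFN-γ changes of -0.26 (-0.51 to -0.01) and -0.00. For the remaining 7 members the difference lay between -0.11 and 0.09, and every one of their counting intervals included 0. Bhlhe41, the closest relative of Bhlhe40, was at -0.11 (-0.38 to 0.15).

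**Figure D4:**
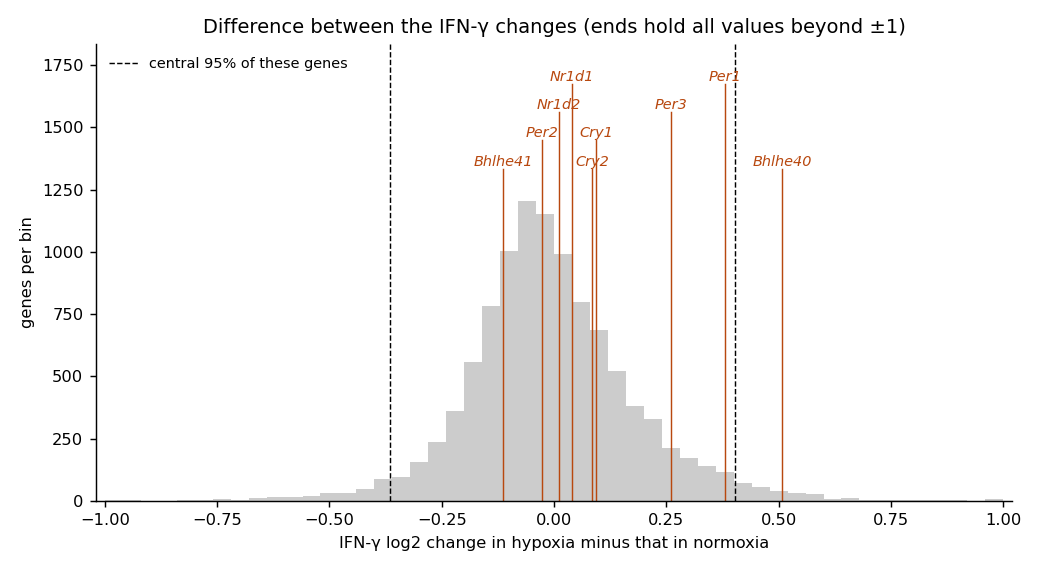
Distribution over 10443 genes of the IFN-γ log2 change under hypoxic conditions minus that under normoxic conditions, as genes per bin, with the 9 clock genes that reached 100 counts in each library as vertical lines; dashed lines bound the central 95% of genes. Bhlhe40, at 0.51, is the member outside that range, and Per1, at 0.38, lies just inside it.

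The rest of the clock was followed with a list of 23 genes, of which 20 were tested. Hypoxia raised 3 of them and lowered 0 by the edgeR test, and the median log2 change of the list was 0.07 beside 0.00 for all genes. Of all tested genes 8.21% were raised and 6.83% lowered, and 3 of 20 does not set the list apart from them. Npas2 had at most 2 counts in a library, Rora at most 7 and Fbxl21 0, and these 3 were not tested.

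Ciart, which encodes CHRONO, a repressor that binds BMAL1, had 613 and 1191 counts without IFN-γ and 561 and 1234 counts with it. Its hypoxia change was 0.96 (0.82 to 1.10) without and 1.14 (0.99 to 1.29) with IFN-γ, and the fitted 1.05 ± 0.0860 (edgeR adjusted p = 1.1e-31) passed in all 7 alternatives. The fitted value stood beside 1.06 for Bhlhe41. The promoter window of Ciart held CACGTG at 3 positions, 44, 58 and 116 bases before the start, and 0.429% of all windows held it more than once. Among the other list genes with a promoter entry only Tef held CACGTG, at 127 and 138 bases before its 2 starts, and Tef was not called with hypoxia (fitted log2 change -0.07 ± 0.0915, edgeR adjusted p = 0.666).

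Nfil3, a repressor that competes with DBP at D-boxes, had 944 and 1198 counts without IFN-γ and 943 and 1436 counts with it, a fitted log2 change with hypoxia of 0.48 ± 0.0797 (edgeR adjusted p = 9.75e-08). Nampt, a clock output that makes a precursor of NAD, had 6154 and 9062 counts without IFN-γ and 9138 and 11801 counts with it. It rose with each treatment, by 0.46 ± 0.0542 with hypoxia (edgeR adjusted p = 1.35e-15) and by 0.49 ± 0.0542 with IFN-γ (edgeR adjusted p = 1.76e-17). Nfil3 and both Nampt changes failed in 1 of the 7 alternatives, with adjusted p of 0.118, 0.374 and 0.826.

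Arntl2, a paralogue of the gene for BMAL1, was the other list gene that IFN-γ raised. It had 399 and 370 counts without IFN-γ and 527 and 617 counts with it, a fitted log2 change of 0.58 ± 0.108 (edgeR adjusted p = 2.85e-06, up to 0.144 over the alternatives). IFN-γ raised 2 of the 20 and lowered 0, beside 4.76% and 1.1% of all tested genes, which does not set the list apart either. The main activators were not called for either treatment. Clock had a fitted log2 change with hypoxia of -0.07 ± 0.0689 (edgeR adjusted p = 0.543), and Arntl, the gene for BMAL1, one of 0.18 ± 0.0801 (edgeR adjusted p = 0.107). The fit averages pairs of libraries that differed. With hypoxia, Arntl changed by 0.33 (0.21 to 0.45) without IFN-γ and 0.03 (-0.09 to 0.16) with it. Clock changed by 0.02 (-0.07 to 0.10) and -0.17 (-0.25 to -0.08). With IFN-γ under hypoxic conditions, Arntl changed by -0.24 (-0.36 to -0.12) and Clock by -0.21 (-0.30 to -0.13). Under normoxic conditions the IFN-γ intervals of both genes included 0. These differences were not tested. Of the 6 tested kinase and ubiquitin ligase genes that act on PER and CRY proteins, 0 were called with either treatment by edgeR or by an alternative fit, beside 15% of all tested genes with hypoxia and 5.86% with IFN-γ. With 6 genes this is near the background, and their fitted hypoxia changes ran from -0.05 for Csnk1e to 0.16 for Gsk3b.

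**Figure D5:**
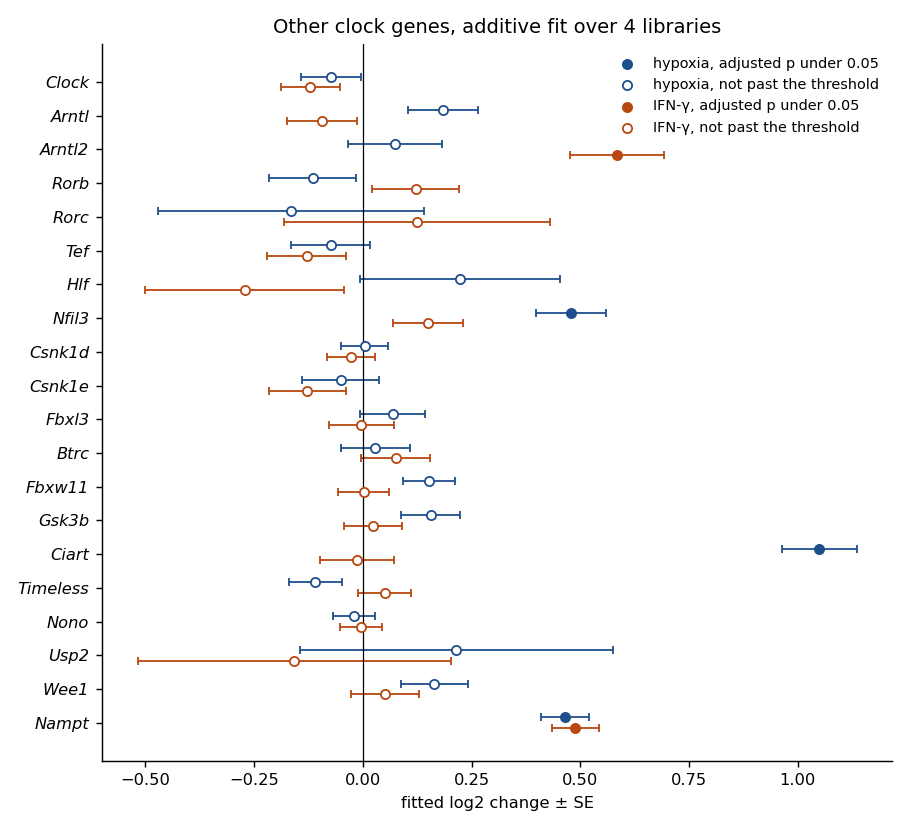
Fitted log2 change ± SE of the 20 tested genes of the clock list in the additive edgeR fit, with hypoxia in blue and IFN-γ in orange; filled points passed an adjusted p of 0.05. Ciart, at 1.05, stands apart with hypoxia, and Arntl2 and Nampt are the filled points for IFN-γ.

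A list of 3 genes that BHLHE40 is known to repress was also examined. Of these, 2 were tested, and 0 were called in either direction for either treatment by the edgeR test or by any alternative fit that gave an adjusted p. Of all tested genes, 15% were called with hypoxia and 5.86% with IFN-γ, so 0 of 2 is near the background. Srebf1, a regulator of lipid synthesis, had a fitted log2 change with hypoxia of 0.01 ± 0.0536, and Ppargc1a, with 25 to 62 counts, one of 0.65 ± 0.369 (edgeR adjusted p = 0.249). The change of Ppargc1a with IFN-γ, 0.75 ± 0.369, was the 1 change of the list with an unadjusted edgeR p under 0.05 (adjusted p = 0.326). Pparg had at most 6 counts in a library and was not tested.

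The genes whose pattern over the 4 libraries was nearest to that of Bhlhe40 were found from the distance between log2 CPM values centred on each gene's mean, among 10576 genes averaging 100 counts or more. They were Map3k1 (distance 0.182), which encodes a kinase upstream of JNK, Acap1 (0.196), which encodes a GTPase-activating protein, Apln (0.204), which encodes the peptide apelin, Gys1 (0.213), the muscle glycogen synthase, and Bnip3l-ps (0.214), a pseudogene whose reads can be shared with its parent gene. Map3k1 had 564 and 1069 counts without IFN-γ and 411 and 1034 counts with it. All 5 were, like Bhlhe40, high in both hypoxic libraries and lowest in the normoxic library with IFN-γ, and this likeness rests on 4 libraries. Under hypoxic conditions the centred value of Bhlhe40 went from 0.56 without IFN-γ to 0.70 with it. Those of Map3k1, Acap1, Apln and Bnip3l-ps were lower with IFN-γ, and that of Gys1 was 0.58 in both.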

How the data were processed

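RNA-seq libraries of MC38 cells, strand-specific and poly-A selected, were sequenced from both ends on a DNBSEQ instrument. The authors aligned the reads with HISAT2, and the submitters' processing notes name featureCounts and the build mm10. The annotation and the strand setting are not given in the sources used here. The authors deposited raw counts per gene for all 4 libraries in 1 table, without normalization. Identifiers were matched to symbols and coordinates in a RefSeq table of GRCm38.p6 (25275 of 27179), and exon lengths came from GENCODE annotation of the same build. No column was without a sample.

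Members and lists were chosen with earlier results of these data known. All 10 members are named, and so are list genes that passed the test or belong to counts of 5 or fewer. Of the lists, 3 genes are not reported here. For Bhlhe40 the 5 nearest genes by centred log2 CPM are named. Thra, Sphk2 and Gm43909 were named after their overlap with members was seen.

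Counts were tested with edgeR 4.0.16 in R 4.3.3 (quasi-likelihood, TMM, filterByExpr with a minimum count of 10, an additive model of oxygen and IFN-γ, Benjamini-Hochberg at 0.05). The SE is the size of the log2 change divided by the square root of the test statistic. For 2 libraries, the change is the log2 ratio of their TMM-scaled CPM after 0.5 counts were added to each, its 95% interval is the exact Clopper-Pearson one given the sum of both counts, and differences of such changes have Poisson intervals. A floor of 3 counts is about 0.087 CPM at these depths. Alternatives were other size factors, DESeq2 1.42.0, other filters, no term for the other stimulus, an assumed coefficient of variation of 0.1, other thresholds, 5 counts added and pairs of libraries alone. The edgeR fit was tested on simulated data. The sequencing batch is not given in the sources used here.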

Additional observations from a re-analysis of the deposited data

Results flagged for a closer look

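The IFN-γ change of Bhlhe40 had opposite signs at the 2 oxygen levels, which drew attention to it. The log2 change was -0.37 (-0.46 to -0.29) under normoxic conditions and 0.13 (0.08 to 0.19) under hypoxic conditions, with both counting intervals on their own side of 0. Each value comes from 1 pair of libraries. The difference between them was not tested, because no condition had a replicate.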

How the results depend on the processing

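No called change reversed its sign under the alternatives run. The number of members raised by hypoxia was 4 in the additive edgeR fit and 2 without the other stimulus in the model, 2 with a coefficient of variation of 0.1 assumed, and 2 with a log2 change of at least 0.5 required. The number lowered was 2, and 1 under each of these 3 settings and with DESeq2's Wald test. In the clock list, hypoxia raised 3 genes, but 1 without the other stimulus in the model, 1 with the log2 requirement and 7 at an unadjusted p under 0.05. IFN-γ raised 2 list genes, but 1 with DESeq2, 1 with the log2 requirement and 0 without the other stimulus in the model. For Bhlhe40 and Per1, single pairs moved the hypoxia and IFN-γ changes away from the fitted ones by more than 1 SE. In the edgeR fits with other size factors or filters the prior degrees of freedom were finite, 16.5 to 23.2, and the adjusted p of each of the 6 members called with hypoxia was larger than in the fit reported, while for members not called it moved either way. The cause was not tested. DESeq2 gave no adjusted p for the hypoxia changes of Per2 and Dbp. No paired analysis was possible because each condition had 1 library. Leaving out a replicate was not possible either. Depth limits Dbp and Per2 most, with at most 114 and 249 counts.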
